A study of Rattus norvegicus with 24 samples.

Results

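The genes described here encode ion channels and neurotransmitter receptors whose transcripts were more abundant in rat oligodendrocyte precursor cells (OPCs) than in differentiating oligodendrocytes (OLs) grown from such cells. They were chosen by name from the study's list of transcripts that fell between vehicle-treated OPCs and vehicle-treated OLs, as the genes whose symbols belong to the families of glutamate, GABA-A, acetylcholine and purinergic receptors and of sodium, calcium, potassium, HCN, TRP and CLC channels. This gave 50 of the 32883 genes in the count tables. The list was available here only in part and served only to pair gene identifiers with symbols, so other channel genes, and those just outside the limits of the list, were not analysed here. Because the list was drawn up from the vehicle-treated libraries, values of those libraries are given as a description without a test. In the present fit of these libraries, the genes nearest to no change were Grin1 with a log2 fold change of -1.16, Grin3a with -1.20 and Gabrg3 with -1.21.

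Bulk RNA was sequenced from primary cultures of OPCs shaken off mixed cells of the cerebral cortices of newborn Sprague Dawley rat pups, with cultures of independent litters as replicates. OPCs were collected after 24 hours in proliferation medium, either untreated, with vehicle (0.04% DMSO) or with 8 µM dolutegravir (DTG), an HIV integrase inhibitor. OLs had the same 24 hours and a further 72 hours in differentiation medium, with the same treatment throughout. Each of the 6 groups had 4 libraries, of 13241279 to 18499994 gene counts each. The study asked how DTG alters OL maturation, and the present comparisons ask where channel and receptor transcripts stood before and after differentiation and whether DTG moved them. Levels are given as CPM, read counts scaled to a common library total with TMM factors, for replicates 1 to 4 in that order, and fold changes as log2 values with their standard error. In bulk RNA, fewer cells of a type and less RNA per cell cannot be told apart.

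OPCs are the glial cells of the brain that receive synapses from neurons. They carry receptors for glutamate and GABA and voltage-gated channels for sodium, calcium and potassium, which let them respond to neuronal activity, and they lose most of these currents as they become myelinating OLs. Receptors that open on a transmitter, the channels that set the resting potential and the auxiliary subunits that place channels in the membrane are encoded by separate gene families, which are taken in turn below.

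Markers of both stages were present. Pdgfra, the receptor for the growth factor that keeps OPCs dividing, ranged over 394 to 885 CPM in untreated OPCs and 155 to 314 CPM in untreated OLs, and Mbp, a major myelin protein, over 137 to 348 CPM and 3996 to 10153 CPM. Neuronal transcripts were present as well. The 8 neuronal markers that could be named of 14 (Snap25, Stmn2, Nefl, Elavl4, Map2, Dcx, Gad1 and Gad2) summed to 217 to 560.0 CPM in untreated OPCs, 388 to 711 CPM in DTG-treated OPCs, 106 to 218 CPM in untreated OLs and 109 to 152 CPM in DTG-treated OLs, and none was at 0 in a whole group. Of these, 7 of 8 were lower in untreated OLs and 8 of 8 in DTG-treated OLs, beside 13.2% and 22.9% of all genes tested. They moved with the channel genes, and their part in the results was not tested. The only named microglial marker of 10, Cd68, ranged over 0.963 to 2.53 CPM in untreated and 1.11 to 3.25 CPM in DTG-treated OPCs, and over 0.0865 to 0.496 CPM in untreated and 0.375 to 0.637 CPM in DTG-treated OLs. It was called lower in both comparisons of the stages (-2.43 and -2.29), so it too moved with the channel genes, and its part was not tested. None of the listed markers of astrocytes or of mesenchymal and vascular cells could be named. Gene names came only from the study's lists of changed transcripts, so the named markers were themselves chosen for a change, and Gad1 and Gad2 recur among the channel partners.

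Replicate 3 of both untreated groups was counted on another gene annotation than the other 22 libraries. Of the 50 genes, 49 were in both, and only 5 had the same exon length in both, with Kcnj16 differing most, by 6.05 times. Results with untreated cells are therefore also given without these libraries where this moved a value. Gene coordinates are those of Rnor_6.0. Grin1 and Gabra5 shared exon sequence with other annotated genes, whose own counts did not exceed 0.187 CPM in any library, and the strand setting of the counting is not given in the sources used here.

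Summed over the 49 genes in both annotations, channel and receptor transcripts made up 734, 753, 938 and 847 CPM in the untreated OPCs, 744, 762, 857 and 839.8 CPM in the vehicle-treated OPCs and 798, 853, 803 and 936 CPM in the DTG-treated OPCs. The sums in OLs were 264, 198, 225 and 274 CPM without treatment, 233, 179, 189 and 232 CPM with vehicle and 310.1, 227, 287 and 264 CPM with DTG. No OL library reached the lowest OPC library under any treatment.

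**Figure D1:**
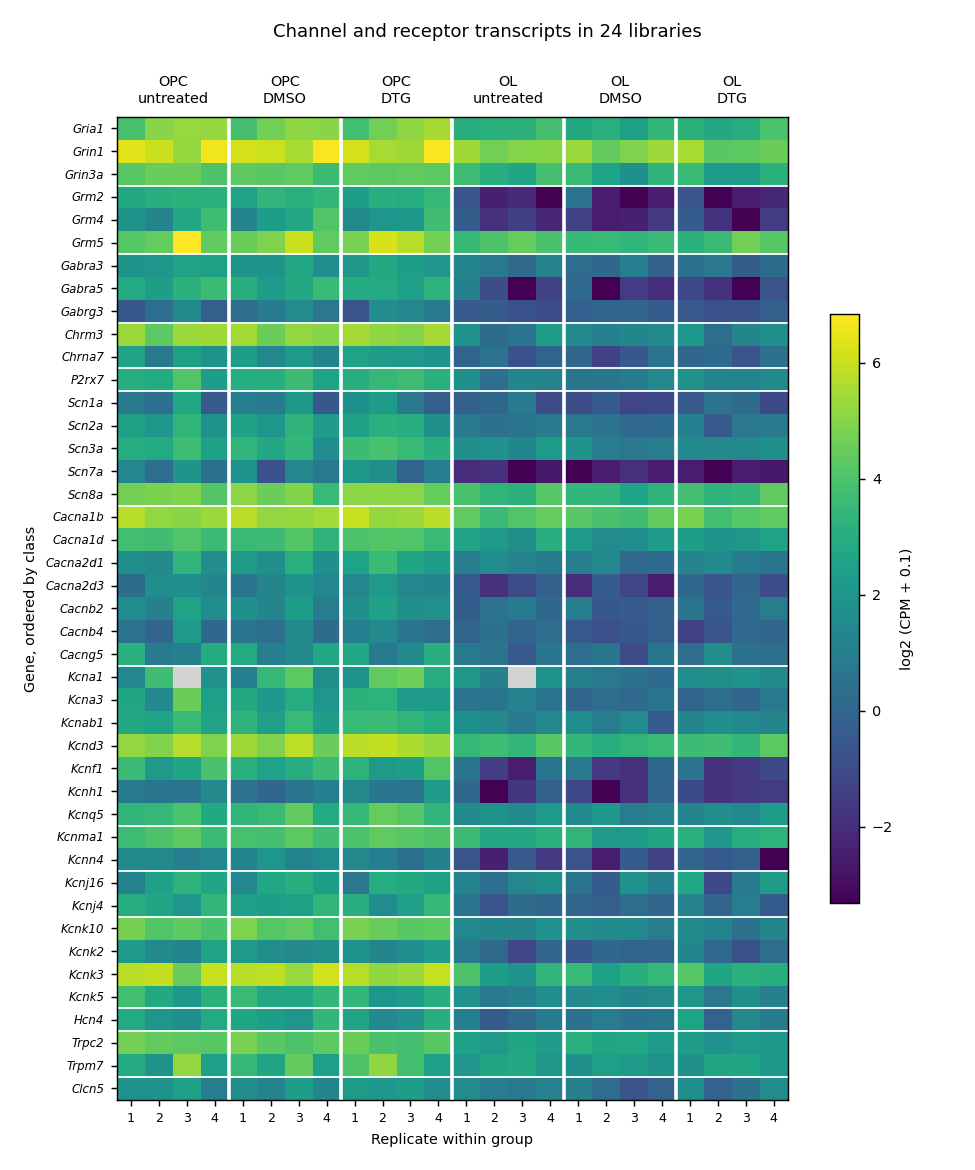
Level of 43 of the 50 channel and receptor genes (rows, grouped by class) in each of the 24 libraries (columns, 4 replicates in each of 6 groups), as log2 of CPM plus 0.1. Grey marks Kcna1 in the untreated libraries of replicate 3, whose annotation lacked it. Rows are brighter in the 12 OPC libraries on the left than in the 12 OL libraries on the right, and the sums over 49 genes were 734 to 938 CPM in untreated OPCs and 198 to 274 CPM in untreated OLs.

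Per kilobase of exon, over the 11 OPC libraries with the common annotation, Grin1 stood at 14.3 ± 4.65 CPM per kilobase (SD, n = 11), Kcnk3 at 11.7 ± 2.41, Grm5 at 11.1 ± 6.37, Chrm3 at 10.1 ± 2.41 and Gria1 at 9.55 ± 3.53 CPM per kilobase. These 5 overlapped one another within their spread. Scn1a was the least abundant at 0.171 ± 0.118 CPM per kilobase. In the 11 OL libraries of the same kind, Grin1 stood at 5.96 ± 1.92 and Grm5 at 4.45 ± 1.55 CPM per kilobase. Among the 50 genes, Chrm3 moved from rank 6 in OPCs to rank 19 in OLs, and Kcnf1 from rank 16 to rank 38.

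Differentiation was examined in the untreated and the DTG-treated cells, which the choice of genes had not used. In untreated cells, 48 of the 50 genes passed the filter on low counts, and 35 of 48 fell in OLs by edgeR's quasi-likelihood test (Benjamini-Hochberg adjusted p below 0.05 with a log2 fold change larger than 1 in size). Of all 12158 genes tested, 24.6% were called in either direction and 13.2% lower. None of the 48 was called higher, against 11.4% of all genes. All 48 fold changes were below 0, from -5.38 for Grm2 to -0.75 for Clcn5, with a median of -1.77 beside -0.10 over all genes. In 36 of the 48 genes every untreated OL value lay below every untreated OPC value, as it did in 19.3% of all genes. A gene could pass the filter through its OPC counts alone, so these counts only describe the genes. The tests given below for Grm2, Grm4, Gabra5, Gabrg3, Scn7a, Cacna2d3, Kcnf1, Kcnh1 and Kcnn4, with their p-values, likewise only describe them. These genes had too few counts in OLs to be tested between DTG-treated and untreated OLs. In untreated cells Gabrg3 had too few counts at both stages together, and Kcna1 was in 1 annotation only. In DTG-treated cells all 50 genes were tested and 46 were lower in OLs, where 39.3% of all 13171 genes were called in either direction and 22.9% lower, with a median of -1.87 beside -0.11. None of the 50 was higher, against 16.4% of all genes. Groups did not overlap in 35 of 50 genes, against 26.4% of all genes. The library names give the same prefix to same-numbered libraries of all treatments, including the vehicle-treated libraries on which the genes had been chosen. Whether a number marks 1 litter is not given in the sources used here, and the common direction is not taken as independent of that choice.

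**Figure D2:**
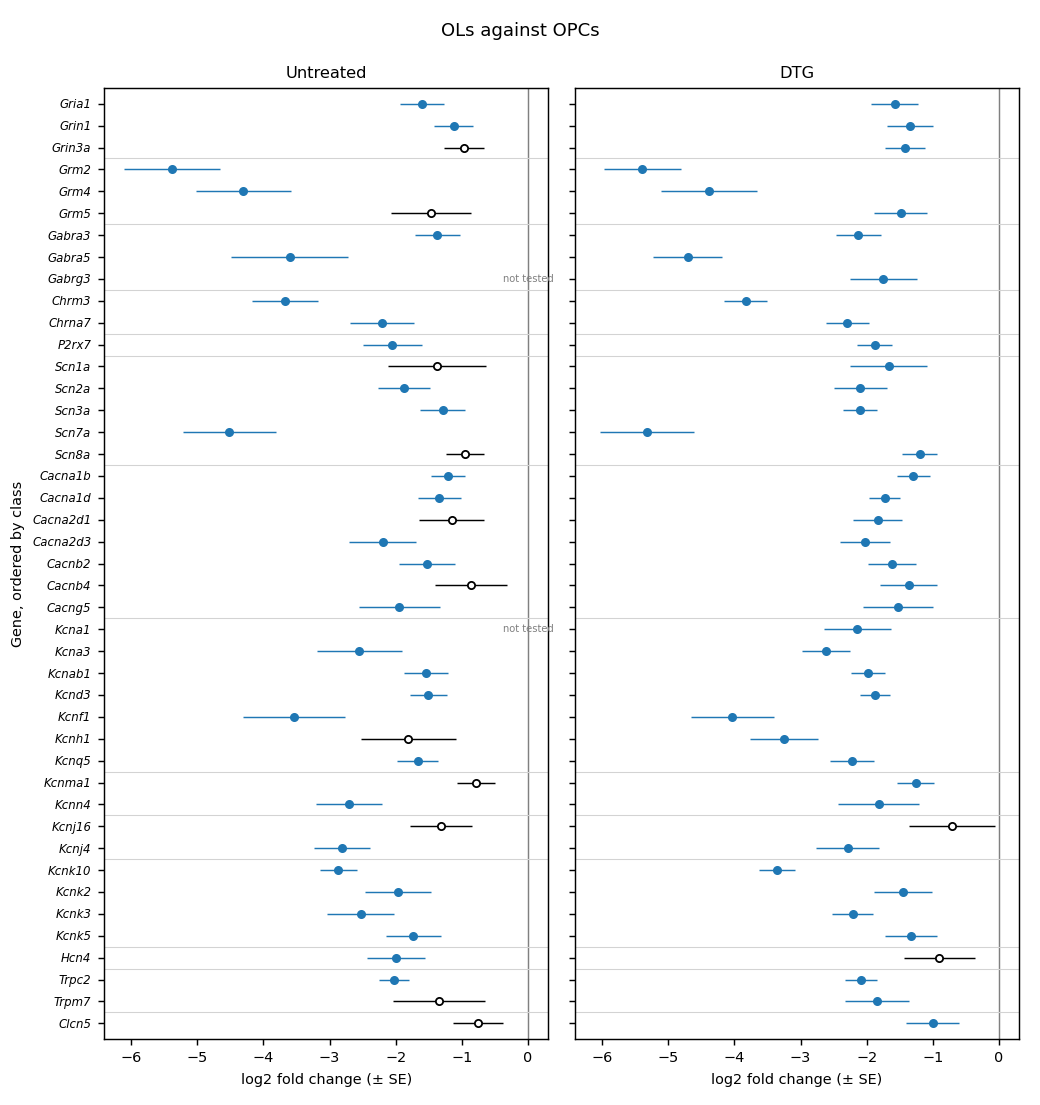
Log2 fold change of OLs against OPCs for 43 of the 50 genes (rows, grouped by class) in untreated (left) and DTG-treated cells (right). Points are estimates of edgeR's quasi-likelihood fit with their standard error over 4 against 4 libraries, and filled blue points passed the thresholds. All points lie left of 0, and Grm2 and Scn7a lie farthest left in both panels.

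The same 33 genes were lower in both the untreated and the DTG-treated OLs. A further 13 were called with DTG alone, among them Grin3a, Grm5, Gabrg3, Scn1a, Scn8a, Cacna2d1, Cacnb4, Kcna1, Kcnh1, Kcnma1, Trpm7 and Clcn5, and 2, among them Hcn4, without treatment alone. The 2 genes called in neither included Kcnj16. A call in one treatment and not in the other does not show a difference between them, and the test of that difference called 0 of the 49 genes tested, as described further on. In simulated counts this test recovered 20.9% of log2 differences of 1.5 and 50.7% of those of 2. Its 0 calls therefore do not show that the changes were alike. Same-numbered libraries of untreated OPCs and OLs deviated together, with correlations of 0.27 to 0.68. However, OPC replicates 2 and 4 correlated more with an OL library of another number (0.43 and 0.39). Replicate 3 of both groups was counted on the other annotation, so these correlations cannot settle whether numbers pair the libraries. With the replicate as a block, 40 of 48 genes were lower. The 5 genes gained included Grin3a (-1.02 ± 0.34), Kcnh1 (-2.07 ± 0.59) and Kcnj16 (-1.24 ± 0.43). Without the untreated libraries of replicate 3, 35 of 49 were lower, with 1 gene gained and Scn3a lost (-0.87 ± 0.28, adjusted p = 0.0309).

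Promoters of these genes, which had been chosen for a fall in OLs, were set beside all promoters of a reference table. That table was not limited to genes expressed in these cultures, so the shares below are a description. RefSeq sequences of assembly GRCr8, from 250 bases before to 50 bases after the start of a gene, matched 33 of the 50 genes. The letters GGGCGG, the core of a GC box, occurred on either strand in 21 of 33 (63.6%) and in 34.9% of all 27457 promoters of the table. The GC content of the 33 had a median of 64.7% beside 52.3% over all promoters, and the GC box is itself made of G and C. The letters GGACAG occurred in 6 of 33 and 21.8% of all promoters, and CAGCACC, with GGACAG a part of the element bound by the neuronal repressor REST, in 0 of 33 and 6.91%. TATAAA occurred in 1 of 33 and 14.3%. The promoters of 4 genes, whose values in every library follow, are shown with GGGCGG and GGACAG, on either strand, in capitals: Chrm3 and Cacna1b as examples with repeated GC boxes at a large and a small fold change, Kcnd3 with both motifs and Kcnf1 with GGACAG alone. Chrm3 is on the minus strand of Rnor_6.0, the build of the counts, and on the plus strand of GRCr8.
Chrm3 (chr17:64696677-64696976, plus strand): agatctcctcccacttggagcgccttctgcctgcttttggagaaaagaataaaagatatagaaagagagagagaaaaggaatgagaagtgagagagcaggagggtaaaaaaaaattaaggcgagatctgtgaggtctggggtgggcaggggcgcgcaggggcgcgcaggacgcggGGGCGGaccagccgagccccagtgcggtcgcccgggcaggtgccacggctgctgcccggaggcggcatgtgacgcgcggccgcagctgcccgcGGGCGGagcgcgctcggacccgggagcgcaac
Cacna1b (chr3:27944236-27944535, minus strand): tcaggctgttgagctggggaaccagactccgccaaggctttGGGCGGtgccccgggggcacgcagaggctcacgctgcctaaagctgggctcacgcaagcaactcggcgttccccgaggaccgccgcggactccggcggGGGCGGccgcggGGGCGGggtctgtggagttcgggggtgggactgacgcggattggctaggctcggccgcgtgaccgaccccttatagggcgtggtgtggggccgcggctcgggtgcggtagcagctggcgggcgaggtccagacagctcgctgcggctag
Kcnd3 (chr2:195626066-195626365, plus strand): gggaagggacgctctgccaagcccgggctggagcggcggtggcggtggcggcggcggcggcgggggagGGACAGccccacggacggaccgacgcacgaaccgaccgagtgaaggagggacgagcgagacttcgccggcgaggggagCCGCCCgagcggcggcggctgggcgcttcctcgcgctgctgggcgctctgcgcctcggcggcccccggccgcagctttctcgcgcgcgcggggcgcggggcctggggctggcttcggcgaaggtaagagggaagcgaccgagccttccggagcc
Kcnf1 (chr6:45693657-45693956, minus strand): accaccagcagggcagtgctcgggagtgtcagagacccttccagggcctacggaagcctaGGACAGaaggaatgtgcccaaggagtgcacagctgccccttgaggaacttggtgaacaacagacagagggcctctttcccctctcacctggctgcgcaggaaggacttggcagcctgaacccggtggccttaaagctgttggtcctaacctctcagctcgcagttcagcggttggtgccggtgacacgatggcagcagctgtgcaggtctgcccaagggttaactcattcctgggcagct

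Among ionotropic glutamate receptors, which open on glutamate, 2 of 3 genes were lower in untreated OLs and all 3 in DTG-treated OLs. Grin1 (ENSRNOG00000011726, chr3:2506896-2534663, minus strand), the obligatory subunit of NMDA receptors, stood at 83.9, 65.8, 37.8 and 100.5 CPM in the untreated OPCs, at 73.1, 68.1, 45.6 and 109 CPM in the vehicle-treated OPCs and at 73.7, 46.0, 42.6 and 108 CPM in the DTG-treated OPCs. In OLs, Grin1 read 42.7, 25.9, 31.5 and 32.7 CPM without treatment, 40.0, 21.3, 29.6 and 41.2 CPM with vehicle and 45.3, 18.7, 19.3 and 23.5 CPM with DTG. OLs lay below OPCs of the same replicate number in every pair, but without treatment and with DTG the lowest OPC library, of replicate 3, lay within the OL range. The fold change of Grin1 was -1.12 ± 0.30 in untreated cells (adjusted p = 0.0166) and -1.35 ± 0.35 with DTG (adjusted p = 0.00574). Gria1 (ENSRNOG00000045816, chr10:42614713-42760200, plus strand), an AMPA receptor subunit, stood at 14.8, 33.1, 38.5 and 38.0 CPM in the untreated OPCs, at 14.3, 25.5, 35.3 and 33.0 CPM in the vehicle-treated OPCs and at 13.4, 25.7, 35.5 and 44.0 CPM in the DTG-treated OPCs. The Gria1 values of OLs were 8.36, 8.99, 9.23 and 14.5 CPM without treatment, 7.22, 8.76, 5.36 and 10.6 CPM with vehicle and 9.17, 6.92, 8.26 and 15.5 CPM with DTG. Replicate 1 was lowest in every OPC group and with DTG lay within the OL range, and the fold change was -1.60 ± 0.33 in untreated cells (adjusted p = 0.00508) and -1.58 ± 0.36 with DTG (adjusted p = 0.0028). Grin3a, an NMDA receptor subunit that lowers calcium entry, ran from 16 to 23.8 CPM in untreated OPCs to 6.46 to 14.5 CPM in untreated OLs, with a fold change of -0.97 ± 0.30 that missed the fold limit and of -1.42 ± 0.30 with DTG, which was called. In untreated cells the call of Grin1 was lost without the OPC library of replicate 4 (-0.92), and Grin3a was called without the OPC library of replicate 4 or the OL library of replicate 1 or 4 (-1.17 to -1.07).

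Metabotropic glutamate receptors signal through G proteins, and 3 of 4 were lower in untreated OLs and all 4 in DTG-treated OLs, Grm2 with the largest fold change of the 50 genes. Grm2 (ENSRNOG00000013171, chr8:115344999-115358046, minus strand), which inhibits adenylyl cyclase, stood at 7.16, 8.48, 9.19 and 8.87 CPM in the untreated OPCs, at 5.78, 10.4, 8.80 and 10.5 CPM in the vehicle-treated OPCs and at 5.17, 8.54, 7.76 and 11.2 CPM in the DTG-treated OPCs. In OLs, Grm2 read 0.567, 0.0865, 0.139 and 0 CPM without treatment, 1.36, 0.0755, 0 and 0.0760 CPM with vehicle and 0.535, 0, 0.0779 and 0.125 CPM with DTG. No OL library came near the OPC values, and several OL libraries had no or 1 read. The fold change was -5.38 ± 0.72 in untreated cells (adjusted p = 0.000512) and -5.39 ± 0.58 with DTG (adjusted p = 2.66e-05). Without the OL library of replicate 1 they were -6.75 and -6.63. Grm4, which also inhibits adenylyl cyclase, ran over 2.40 to 12.9 CPM in untreated OPCs and 0.115 to 0.709 CPM in untreated OLs, with fold changes of -4.31 and, with DTG, -4.39. Because the OL libraries hold so few reads, the size of these fold changes depends on the prior count of the fit. Grm5 (ENSRNOG00000016429, chr1:151439409-151783392, plus strand), which couples to phospholipase C, stood at 17.8, 22, 115 and 20.9 CPM in the untreated OPCs, at 23.9, 29.7, 65.3 and 20.4 CPM in the vehicle-treated OPCs and at 27.8, 74.4, 53.3 and 26.3 CPM in the DTG-treated OPCs. The Grm5 values of OLs were 11.2, 16, 21.9 and 15.3 CPM without treatment, 11.2, 11.9, 9.96 and 12.1 CPM with vehicle and 9.17, 11.8, 25.9 and 18.1 CPM with DTG. The untreated OPC library of replicate 3 stood above all others, and the DMSO library of replicate 3 and the DTG libraries of replicates 2 and 3 were the next highest. Grm5 was not called in untreated cells (-1.46 ± 0.60, adjusted p = 0.0849; -0.52 ± 0.20 without the replicate 3 libraries) and was lower in DTG-treated OLs (-1.49 ± 0.39, adjusted p = 0.00672).

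Of the GABA-A receptor subunits, which form chloride channels opened by GABA, all 3 tested were lower in untreated OLs and all 4 in DTG-treated OLs. Gabra5 (ENSRNOG00000010803, chr1:112833944-112947451, minus strand), an alpha subunit, stood at 7.57, 4.92, 9.08 and 12.3 CPM in the untreated OPCs, at 8.18, 4.89, 7.21 and 11.5 CPM in the vehicle-treated OPCs and at 7.65, 7.33, 5.19 and 9.34 CPM in the DTG-treated OPCs. The Gabra5 values of OLs were 2.05, 0.432, 0 and 0.287 CPM without treatment, 1.0, 0, 0.251 and 0.152 CPM with vehicle and 0.382, 0.182, 0 and 0.499 CPM with DTG. Every OL library lay below the lowest OPC library, with 1 library of each OL group at 0, and the fold changes were -3.60 ± 0.88 (adjusted p = 0.0115) and -4.71 ± 0.52 (adjusted p = 3.12e-05). The untreated OL library of replicate 1 set the first of these, which was -5.14 without it and otherwise no nearer to 0 than -3.20 with any single library left out. Gabra3, another alpha subunit, had fold changes of -1.37 ± 0.34 and -2.12 ± 0.34. Gabrg3, a gamma subunit, reached at most 3.04 CPM and was tested only with DTG (-1.75 ± 0.51, adjusted p = 0.0108).

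Chrm3, the muscarinic acetylcholine receptor that raises calcium through phospholipase C, was the gene of its class with the larger fold change. Chrm3 (ENSRNOG00000049410, chr17:63990599-63994169, minus strand) stood at 39.9, 19.7, 39.8 and 42.4 CPM in the untreated OPCs, at 44.6, 23.8, 36.3 and 31.9 CPM in the vehicle-treated OPCs and at 45.1, 35.6, 31.4 and 44.6 CPM in the DTG-treated OPCs. In OLs, Chrm3 read 3.54, 1.12, 1.46 and 4.93 CPM without treatment, 2.79, 2.04, 2.43 and 2.74 CPM with vehicle and 4.20, 1.18, 2.41 and 3.18 CPM with DTG. Replicate 2 of the untreated OPCs was the lowest OPC library and still lay above every OL library. The ratio of the mean OPC level to the mean OL level was 12.8 in untreated cells and 14.3 with DTG, and the fold changes were -3.67 ± 0.50 (adjusted p = 0.000581) and -3.83 ± 0.33 (adjusted p = 5.51e-06). Chrna7, a nicotinic channel, ran over 1.62 to 5.78 CPM in untreated OPCs and 0.486 to 1.38 CPM in untreated OLs and was lower in both comparisons (-2.21 ± 0.48 and -2.29 ± 0.33). P2rx7 (ENSRNOG00000001296, chr12:39353613-39396042, minus strand), a cation channel opened by extracellular ATP, stood at 8.49, 7.64, 16.9 and 5.16 CPM in the untreated OPCs, at 7.73, 8.5, 12.5 and 5.95 CPM in the vehicle-treated OPCs and at 8.13, 11, 12.8 and 8.76 CPM in the DTG-treated OPCs. The P2rx7 values of OLs were 3.33, 1.21, 2.43 and 2.24 CPM without treatment, 1.43, 1.51, 1.76 and 2.51 CPM with vehicle and 3.67, 2.37, 2.34 and 2.75 CPM with DTG. Each treatment kept all OL values below all OPC values, and the fold changes were -2.05 ± 0.45 (adjusted p = 0.00667) and -1.88 ± 0.27 (adjusted p = 0.000149).

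Sodium channel genes encode the pores that carry the action potential and their auxiliary subunits. In untreated OLs 5 of 7 were lower and in DTG-treated OLs 6 of 7. Scn7a (ENSRNOG00000029342, chr3:52777214-52849907, minus strand), an atypical channel involved in sodium sensing, stood at 2.54, 1.17, 3.71 and 1.31 CPM in the untreated OPCs, at 3.64, 0.496, 2.51 and 1.62 CPM in the vehicle-treated OPCs and at 4.17, 3.15, 0.856 and 1.96 CPM in the DTG-treated OPCs. The Scn7a values of OLs were 0.142, 0.173, 0 and 0.0574 CPM without treatment, 0, 0.0755, 0.167 and 0.0760 CPM with vehicle and 0.0764, 0, 0.0779 and 0.0624 CPM with DTG. OPC libraries lay above all OL libraries, which held between 0 and 2 reads of this gene, and the fold changes were -4.52 ± 0.70 (adjusted p = 0.00118) and -5.32 ± 0.71 (adjusted p = 0.000104). With so few OL reads, these values only describe the gene. Scn2a (-1.88 and -2.10) and Scn3a (-1.29 and -2.10), neuronal pore-forming subunits, were lower in both comparisons. Scn8a, another, was not called in untreated cells (-0.96 ± 0.29, short of the fold limit) and was lower with DTG (-1.20 ± 0.27). It was called in untreated cells without the OPC library of replicate 4 or the OL library of replicate 1 or 4 (-1.15 to -1.03). Scn1a, also neuronal, was called only with DTG (-1.38 ± 0.74 and -1.67 ± 0.58), a call lost without the OPC library of replicate 1 or 2 or the OL library of replicate 1 or 4 (-1.53 to -1.22), and did not exceed 6.48 CPM.

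Of the 7 calcium channel genes, 5 were lower in untreated OLs and all 7 in DTG-treated OLs. Cacna1b (ENSRNOG00000004560, chr3:1740024-1924827, minus strand), the pore of N-type channels, stood at 54.5, 36.4, 32.6 and 40.0 CPM in the untreated OPCs, at 55.4, 36.7, 38.1 and 43.4 CPM in the vehicle-treated OPCs and at 63.4, 37.5, 39.6 and 55.6 CPM in the DTG-treated OPCs. In OLs, Cacna1b read 20.4, 12, 17.1 and 21.5 CPM without treatment, 18.5, 14.9, 13.3 and 21.2 CPM with vehicle and 28.0, 13.7, 18.0 and 20.8 CPM with DTG. OPC values lay above OL values under every treatment, and the fold changes were -1.21 ± 0.25 (adjusted p = 0.00514) and -1.29 ± 0.25 (adjusted p = 0.001). Cacna2d3 (ENSRNOG00000031287, chr16:4871650-5795825, minus strand), an auxiliary subunit that promotes surface expression, stood at 1.10, 3.04, 3.06 and 2.41 CPM in the untreated OPCs, at 1.49, 2.41, 3.53 and 2.5 CPM in the vehicle-treated OPCs and at 2.48, 4.35, 2.62 and 2.36 CPM in the DTG-treated OPCs. The Cacna2d3 values of OLs were 0.638, 0.173, 0.417 and 0.803 CPM without treatment, 0.143, 0.680, 0.335 and 0.0760 CPM with vehicle and 0.993, 0.546, 0.935 and 0.437 CPM with DTG. All values were low, OLs lay below OPCs in each treatment, and the fold changes were -2.20 ± 0.50 (adjusted p = 0.00849) and -2.03 ± 0.38 (adjusted p = 0.000919). Cacna1d, an L-type pore, had fold changes of -1.34 ± 0.32 and -1.73 ± 0.24, both called. Among the other auxiliary subunits, Cacnb2 (-1.53 and -1.62) and Cacng5 (-1.95 and -1.53), of the family that traffics AMPA receptors, were called in both comparisons, and Cacna2d1 (-1.15 and -1.83) and Cacnb4 (-0.87 and -1.36) only with DTG. In untreated cells Cacng5 lost its call without the OPC library of replicate 1 or 4 or the OL library of replicate 1, 2, 3 or 4 (-2.12 to -1.52), and Cacnb2 without the OL library of replicate 1, 2 or 4 (-1.62 to -1.34). With DTG, Cacng5 lost it without the OPC library of replicate 1 or 4 or the OL library of replicate 1, 3 or 4 (-1.42 to -1.13), and Cacnb4 without the OPC library of replicate 2 or the OL library of replicate 2 (-1.26 to -1.13).

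Voltage-gated potassium channels were the largest class, with 9 genes, of which 6 of 8 tested were lower in untreated OLs and all 9 in DTG-treated OLs. Kcnd3 (ENSRNOG00000014686, chr2:207923775-208140727, plus strand), which carries a fast inactivating A-type current, stood at 37.0, 30.6, 52.8 and 29.8 CPM in the untreated OPCs, at 42.6, 29.7, 57.8 and 22.9 CPM in the vehicle-treated OPCs and at 55.6, 60.2, 48.5 and 38.1 CPM in the DTG-treated OPCs. In OLs, Kcnd3 read 10.8, 12.9, 10.4 and 19.1 CPM without treatment, 10.6, 7.93, 10.0 and 11.4 CPM with vehicle and 12.5, 13, 10.6 and 19.7 CPM with DTG. No OL library reached the lowest OPC library of its treatment, and the fold changes were -1.51 ± 0.28 (adjusted p = 0.00295) and -1.87 ± 0.23 (adjusted p = 6.12e-05). Kcnf1 (ENSRNOG00000024310, chr6:42471066-42473738, minus strand), a silent subunit that forms channels only with partner subunits, stood at 12.1, 4.47, 6.25 and 15.1 CPM in the untreated OPCs, at 9.02, 5.88, 7.98 and 12.3 CPM in the vehicle-treated OPCs and at 9.50, 4.58, 5.08 and 16.8 CPM in the DTG-treated OPCs. The Kcnf1 values of OLs were 1.42, 0.259, 0.0694 and 1.43 CPM without treatment, 1.64, 0.227, 0.167 and 0.988 CPM with vehicle and 1.38, 0.182, 0.234 and 0.375 CPM with DTG. Replicates 1 and 4 were higher than 2 and 3 in every OPC group, and the OL values were below all of them, at fold changes of -3.54 ± 0.77 (adjusted p = 0.00667) and -4.03 ± 0.62 (adjusted p = 0.000267), the latter -5.00 without the OL library of replicate 1. Kcna3 (-2.55 ± 0.64; -1.71 ± 0.37 without the replicate 3 libraries), a Shaker-type channel, Kcnab1 (-1.54 ± 0.33), a cytoplasmic beta subunit of Shaker-type channels, and Kcnq5 (-1.67 ± 0.32), an M-current channel, were lower in untreated OLs, and with DTG their fold changes were -2.61, -1.98 and -2.22. Kcnh1, of the ether-à-go-go family, was called only with DTG (-3.25 ± 0.51; untreated -1.81 ± 0.72), and Kcna1, a Shaker-type channel, was tested only with DTG (-2.15 ± 0.51).

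The remaining potassium channels were the calcium-activated, inwardly rectifying and tandem-pore-domain families. Kcnma1 (ENSRNOG00000005985, chr15:344360-1047956, plus strand), the large-conductance calcium-activated channel, stood at 12.9, 16.1, 19.8 and 12.3 CPM in the untreated OPCs, at 14.8, 14.4, 19.3 and 13.1 CPM in the vehicle-treated OPCs and at 15.6, 20.4, 18.3 and 16.6 CPM in the DTG-treated OPCs. In OLs, Kcnma1 read 12.5, 7.01, 7.01 and 9.01 CPM without treatment, 9.94, 4.38, 4.60 and 6.46 CPM with vehicle and 8.71, 3.82, 7.71 and 9.43 CPM with DTG. A single untreated OL library, of replicate 1, lay within the OPC range, and Kcnma1 was not called in untreated cells (-0.79 ± 0.28, adjusted p = 0.0532) but was lower in DTG-treated OLs (-1.26 ± 0.27, adjusted p = 0.00213). Without the OL library of replicate 1 (-1.0) it was called in untreated cells. Kcnn4 (ENSRNOG00000019440, chr1:81230612-81245996, plus strand), the intermediate-conductance calcium-activated channel, stood at 2.77, 2.72, 1.95 and 2.61 CPM in the untreated OPCs, at 2.34, 3.82, 2.30 and 3.01 CPM in the vehicle-treated OPCs and at 2.64, 2.0, 1.25 and 2.13 CPM in the DTG-treated OPCs. The Kcnn4 values of OLs were 0.567, 0.0865, 0.625 and 0.229 CPM without treatment, 0.500, 0.0755, 0.670 and 0.304 CPM with vehicle and 0.917, 0.637, 0.779 and 0 CPM with DTG. All OL values were below all OPC values of the same treatment, with fold changes of -2.70 ± 0.50 (adjusted p = 0.00297) and -1.82 ± 0.61 (adjusted p = 0.0228), the latter lost without the OPC library of replicate 1 (-1.65).

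Kcnj4 (ENSRNOG00000013869, chr7:120717375-120744602, minus strand), an inward rectifier that holds the resting potential, stood at 7.86, 6.34, 3.89 and 10.4 CPM in the untreated OPCs, at 5.32, 5.03, 5.42 and 10.1 CPM in the vehicle-treated OPCs and at 8.34, 2.98, 5.19 and 11.1 CPM in the DTG-treated OPCs. In OLs, Kcnj4 read 1.42, 0.519, 1.11 and 0.975 CPM without treatment, 0.929, 0.755, 1.17 and 0.912 CPM with vehicle and 2.22, 0.910, 1.87 and 0.687 CPM with DTG. The stages did not overlap, and the fold changes were -2.81 ± 0.42 (adjusted p = 0.000984) and -2.29 ± 0.48 (adjusted p = 0.00174). Kcnj16, which combines with other inward rectifiers, ran over 2.19 to 9.43 CPM in untreated OPCs and 1.21 to 3.38 CPM in untreated OLs. It was not called in either comparison (-1.32 ± 0.47 and -0.71 ± 0.65). In untreated cells 4 of 17 alternatives called it lower: DESeq2, ERCC scaling, the replicate block and leaving out the OPC library of replicate 1 (-1.59). With DTG 1 of 15 did, ERCC scaling. The tandem-pore-domain channels, which pass background potassium current, were lower in all 4 members in both comparisons. Kcnk3 (ENSRNOG00000009790, chr6:27151612-27190132, minus strand), an acid-sensitive channel, stood at 55.5, 60.1, 22.2 and 64.3 CPM in the untreated OPCs, at 54.5, 59.4, 39.0 and 70.6 CPM in the vehicle-treated OPCs and at 53.6, 35.9, 40.4 and 61.7 CPM in the DTG-treated OPCs. The Kcnk3 values of OLs were 15.9, 5.02, 3.75 and 10.3 CPM without treatment, 11.8, 5.44, 8.54 and 10.9 CPM with vehicle and 17.7, 6.46, 8.88 and 8.55 CPM with DTG. Replicate 3 was lowest in the untreated OPCs and still above every untreated OL library, at fold changes of -2.53 ± 0.50 (adjusted p = 0.00429) and -2.21 ± 0.31 (adjusted p = 0.000135). Kcnk10 (ENSRNOG00000003813, chr6:122419046-122545899, minus strand), which opens on stretch and lipids, stood at 26.8, 16.8, 20.0 and 15.3 CPM in the untreated OPCs, at 29.5, 17.8, 20.7 and 13.5 CPM in the vehicle-treated OPCs and at 28.1, 22.2, 18.8 and 20.1 CPM in the DTG-treated OPCs. In OLs, Kcnk10 read 2.62, 2.42, 2.36 and 3.44 CPM without treatment, 3.15, 2.79, 2.85 and 1.82 CPM with vehicle and 2.75, 2.28, 1.32 and 2.37 CPM with DTG. Kcnk10 lay in every OL library below every OPC library, at fold changes of -2.87 ± 0.28 (adjusted p = 9.49e-05) and -3.36 ± 0.27 (adjusted p = 4.41e-06). Its relative Kcnk2 (-1.96 ± 0.50 and -1.45 ± 0.43) and the alkali-activated Kcnk5 (-1.73 ± 0.41 and -1.33 ± 0.40) were lower too.

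Hcn4 (ENSRNOG00000009450, chr8:63600663-63639654, plus strand), a pacemaker channel opened by hyperpolarization, stood at 7.45, 4.08, 3.30 and 7.29 CPM in the untreated OPCs, at 6.36, 5.17, 3.84 and 10.4 CPM in the vehicle-treated OPCs and at 5.96, 2.58, 3.42 and 8.48 CPM in the DTG-treated OPCs. In OLs, Hcn4 read 1.98, 0.692, 1.04 and 1.78 CPM without treatment, 1.29, 1.81, 1.34 and 1.44 CPM with vehicle and 5.81, 0.819, 2.65 and 1.69 CPM with DTG. The DTG-treated OL libraries of replicates 1 and 3 lay within the range of DTG-treated OPCs. Hcn4 was lower in untreated OLs (-2.0 ± 0.44, adjusted p = 0.00689) and not called with DTG (-0.90 ± 0.53, adjusted p = 0.158), where leaving out the OL library of replicate 1 gave -1.55 ± 0.51 (adjusted p = 0.0226). Trpc2 (ENSRNOG00000020188, chr1:167169442-167192801, plus strand), a cation channel known from pheromone-sensing neurons of rodents, stood at 26.3, 21.2, 19.7 and 19.0 CPM in the untreated OPCs, at 28.0, 19.1, 15.9 and 19.8 CPM in the vehicle-treated OPCs and at 23.4, 15.2, 14.2 and 18.9 CPM in the DTG-treated OPCs. The Trpc2 values of OLs were 5.6, 4.41, 6.46 and 4.82 CPM without treatment, 8.58, 6.42, 6.53 and 4.87 CPM with vehicle and 5.04, 3.46, 4.28 and 4.12 CPM with DTG. The OL libraries lay far below the OPC libraries, at fold changes of -2.03 ± 0.23 (adjusted p = 0.000225) and -2.09 ± 0.24 (adjusted p = 4.41e-05). Trpm7, a channel fused to a kinase that admits magnesium, read 7.34, 3.63, 37.1 and 5.30 CPM in untreated OPCs, 10.9, 6.44, 21.3 and 5.29 CPM with vehicle and 16.3, 36.0, 13.6 and 5.31 CPM with DTG, so that replicate 3 was highest without treatment and with vehicle and replicate 2 with DTG, as for Grm5. Its fold change was -1.35 ± 0.70 in untreated cells, -0.22 ± 0.34 without the replicate 3 libraries, neither called, and -1.84 ± 0.49 with DTG, which was called.

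Clcn5 (ENSRNOG00000002862, chrX:16050780-16196789, plus strand), a chloride and proton exchanger of endosomes, stood at 3.52, 3.63, 5.36 and 1.86 CPM in the untreated OPCs, at 3.12, 2.34, 5.11 and 2.35 CPM in the vehicle-treated OPCs and at 4.59, 4.24, 4.91 and 2.88 CPM in the DTG-treated OPCs. In OLs, Clcn5 read 2.90, 1.90, 1.60 and 2.18 CPM without treatment, 2.14, 1.13, 0.502 and 0.836 CPM with vehicle and 3.21, 0.819, 1.32 and 2.93 CPM with DTG. The stages overlapped in untreated and DTG-treated cells. Clcn5 was not called in untreated cells (-0.75 ± 0.38, adjusted p = 0.147) and was just past the limits with DTG (-1.0 ± 0.40, adjusted p = 0.0469), a call that 10 of 15 alternatives removed, among them leaving out the OPC library of replicate 1, 2 or 3 or the OL library of replicate 2 or 3 (-0.99 to -0.74).

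**Figure D3:**
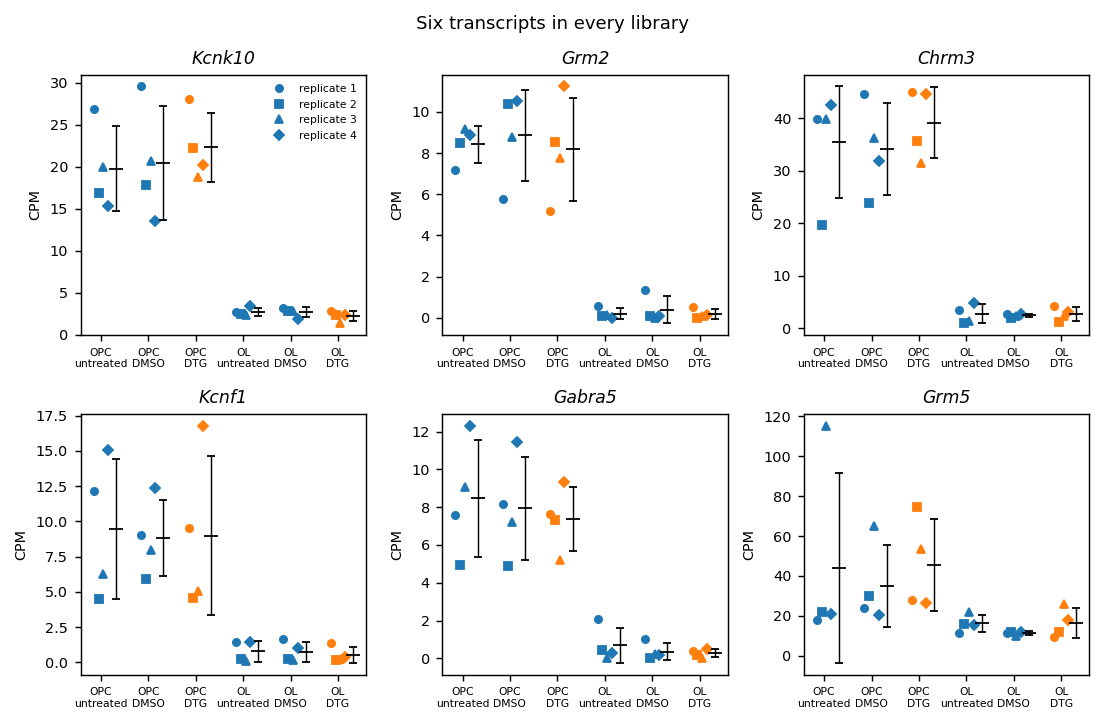
CPM of Kcnk10, Grm2, Chrm3, Kcnf1, Gabra5 and Grm5 in every library of the 6 groups, with a symbol for each replicate number, orange for DTG, and the mean with its SD beside the 4 points. In Kcnk10 the untreated OL libraries (2.36 to 3.44 CPM) sit below the untreated OPC libraries (15.3 to 26.8 CPM), and in Grm5 the untreated OPC library of replicate 3 stands apart at 115 CPM.

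DTG was compared with no treatment in each stage, to see whether channel and receptor transcripts differed. The study's own control for DTG was DMSO vehicle, which untreated cells did not receive. An effect of the vehicle therefore cannot be told apart from one of DTG in these comparisons. In OLs, 40 of the 50 genes passed the filter on low counts. In the main fit, which did not pair libraries by number, none was called, while 0.26% of all 11909 genes were called, 0.193% higher and 0.0672% lower. At an unadjusted p under 0.05 there were 3 of the 40, beside 1450 of all 11909 genes. DESeq2's Wald test called 1 gene higher, and so did edgeR's test with the replicate as a block. Same-numbered untreated and DTG-treated OL libraries deviated together (correlations of 0.20 to 0.47), so the block takes up a pairing that the main fit leaves out. With the block 107 of all genes were called, in place of 31. Of the 40 fold changes 17 were above and 23 below 0, with a median of -0.04 beside -0.01 over all genes. Without the untreated library of replicate 4 they were 21 above and 19 below 0 (median 0.02), and without the DTG-treated library of replicate 2 they were 22 above and 20 below 0 (median 0.05). Without the untreated library of replicate 3, on the larger annotation, they were 15 above and 28 below 0 (median -0.10). Leaving out the DTG-treated library of replicate 1 gave 15 above and 25 below 0 (median -0.14), and that of replicate 4 gave 15 and 27 (median -0.13). Too few counts in OLs left Grm2, Grm4, Gabra5, Gabrg3, Scn7a, Cacna2d3, Kcnf1, Kcnh1 and Kcnn4 without a test, and Kcna1 was absent from 1 annotation.

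The DTG-treated OL values lay wholly above the untreated OL values in 1 of 40 genes and wholly below in 0, beside 4.22% and 3.33% of all genes tested. For Hcn4 the values of 1.98, 0.692, 1.04 and 1.78 CPM without treatment and 5.81, 0.819, 2.65 and 1.69 CPM with DTG overlapped, with replicate 1 highest in both, and the fold change was 0.98 ± 0.57 (adjusted p = 0.54). Kcnj4 (0.48 ± 0.46), P2rx7 (0.26 ± 0.33), Kcnk3 (0.24 ± 0.47) and Cacna1b (0.18 ± 0.26) had estimates above 0, and Grin1 (-0.32 ± 0.29), Kcnk10 (-0.32 ± 0.28), Trpc2 (-0.33 ± 0.22) and Kcnma1 (-0.26 ± 0.31) below 0, none of them called. Those of Gria1 (-0.04 ± 0.29), Grm5 (0.02 ± 0.33), Chrm3 (-0.02 ± 0.52), Kcnd3 (0.07 ± 0.26) and Clcn5 (-0.04 ± 0.43) were closest to 0 among the genes given with every library.

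In OPCs, 49 of the 50 genes were tested against untreated cells after 24 hours of DTG, and none was called, as none of all 12269 genes was (0%). No member and 173 of all genes had an unadjusted p under 0.05, and DESeq2 called 0. There were 26 fold changes above and 23 below 0, with a median of 0.04 beside -0.03. Without the untreated library of replicate 3 this became 34 above and 16 below 0 of 50, a median of 0.23 beside -0.02, again with no call. Without the untreated library of replicate 2 it became 19 above and 30 below 0, with a median of -0.03. On the scale of the ERCC spike-in counts 47 were above and 2 below 0, with a median of 0.38 beside 0.35 over all genes, so the split of directions depended on the scaling. The interaction of stage and DTG was called in 0 of 49 members and in 0% of all 12679 genes, with 2 members and 484 genes at an unadjusted p under 0.05 and 12 genes, none of them a member, called by DESeq2. Of the 49 interaction values 34 were below and 15 above 0, with a median of -0.17 beside 0.03 over all genes. Without the untreated OPC library of replicate 2 the members' median was -0.06. Without the replicate 3 libraries, 39 of 50 were below and 11 above 0, with a median of -0.52 beside 0.02. In that fit, 8 of 50 members and 2842 of all 13834 genes had an unadjusted p under 0.05, and no member was called.

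**Figure D4:**
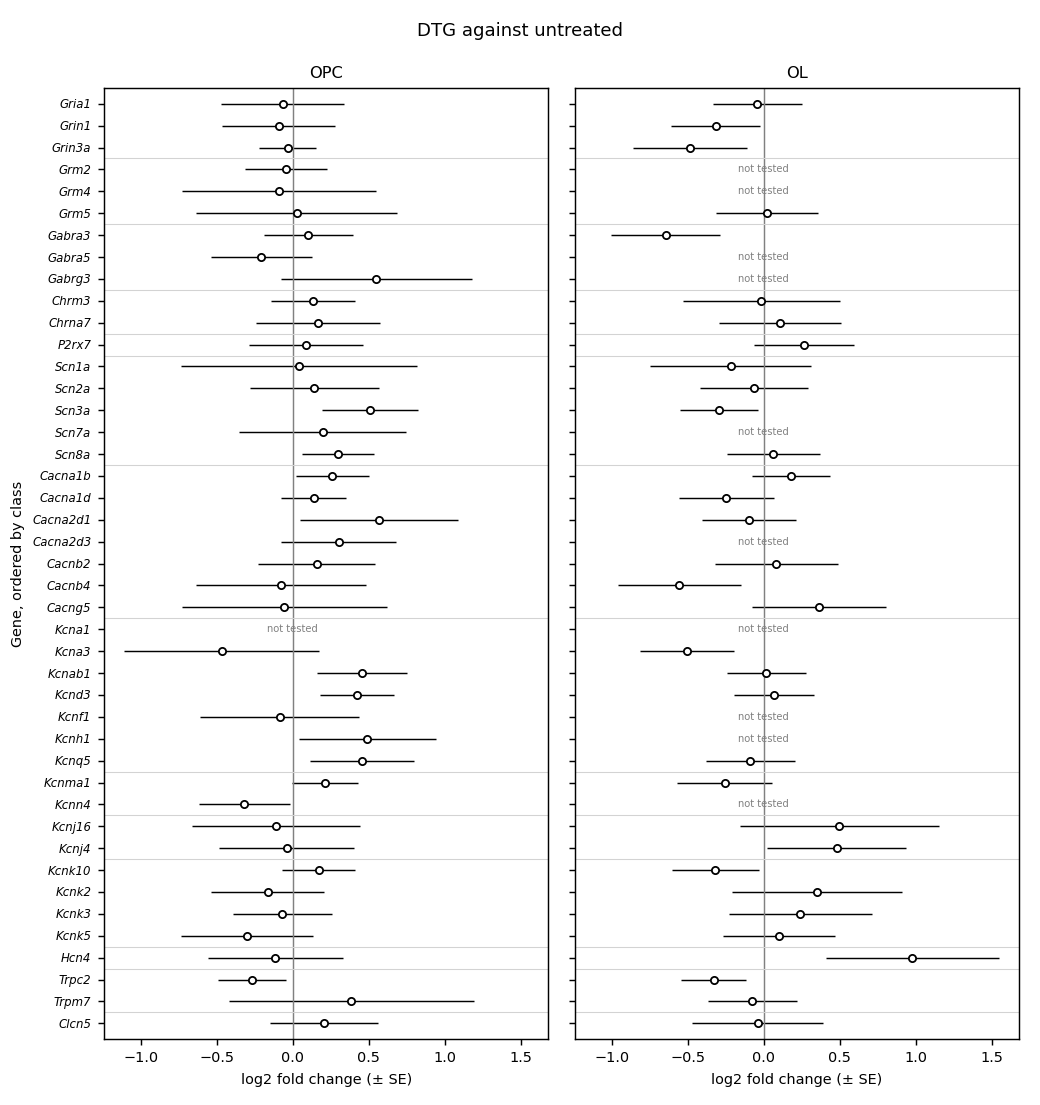
Log2 fold change of DTG against no treatment for 43 of the 50 genes (rows, grouped by class) in OPCs (left) and OLs (right), with the standard error of edgeR's fit over 4 against 4 libraries. Open points did not pass the thresholds, and genes with too few counts are marked as not tested. Points lie on both sides of 0, and in OLs Hcn4 stands at 0.98 and Gabra3 at -0.65.

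Against vehicle, and given only as a description, 31 of 40 tested genes were above 0 in DTG-treated OLs with a median log2 fold change of 0.24 beside 0.01 over all genes, and 36 of 50 in DTG-treated OPCs with a median of 0.17 beside -0.0024, none of them called, where 0.559% of all genes were called in OLs and 0% in OPCs. The vehicle-treated OLs had been used to choose genes that were low in them. Mbp ranged over 1761 to 4482 CPM in DTG-treated OLs and 4455 to 11779 CPM in vehicle-treated OLs. It was lower with DTG in each same-numbered pair, and the part of a difference in OL markers in the channel values was not tested. In vehicle-treated cells themselves, OLs against OPCs gave a median of -1.95 beside -0.12 over all genes. Scn1a and Scn7a were below the filter. All 48 genes that passed it were called lower, where 32.3% of all genes were called in either direction and 18.3% lower. The genes had been chosen for a fall in this same comparison. Their count therefore follows from the choice and is not a test of them.

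Some transcripts also differed between replicate numbers of OPCs in an order repeated in all 3 treatments. The library names give replicates 2 and 3 the same date. In 8 of 48 channel and receptor genes with at least 10 counts in each OPC library (among them Grin1, Cacna1b, Cacng5, Kcnf1, Kcnk2, Kcnk5 and Hcn4), replicates 1 and 4 both exceeded replicates 2 and 3 under every treatment, as they did in 8.96% of 11836 genes. Cacng5 read 8.90, 1.68, 2.06 and 7.63 CPM in untreated, 7.27, 1.98, 2.81 and 6.69 CPM in vehicle-treated and 6.70, 1.78, 2.74 and 8.42 CPM in DTG-treated OPCs. Replicates 1 and 4 were about alike in each treatment and apart from 2 and 3. The reverse order held for 3 genes, Grm5, Gabrg3 and Kcnq5, and for 8.53% of all genes. In untreated OPCs, replicate 3 held the highest value of 29 of the 50 genes, in vehicle-treated OPCs of 24, and in DTG-treated OPCs of 4, where replicate 2 held 20. The untreated replicate 3 was counted on the other annotation and had no value for Kcna1. No share over all genes was worked out for these counts, so they are not read as a trait of the channel genes. Over all genes, same-numbered untreated and DTG-treated OPC libraries did not all deviate together, with correlations of -0.18 to 0.65.

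Proteins that work with these channels were looked at from a list of 58 genes, of which 24 could be named. All but Cnih3 owe their name to the list of transcripts that fell, so their counts only describe them. In untreated OLs 19 of 24 were lower, among them those named next, beside 13.2% of all genes tested. With DTG 23 were lower, beside 22.9% of all genes. Among receptor partners were Neto1 (-1.94 untreated), an auxiliary subunit of kainate receptors, and the postsynaptic scaffolds Dlg2 (-2.74), Dlgap1 (-1.41) and Shank1 (-1.44). The enzymes that make GABA, Gad1 (-4.10) and Gad2 (-2.93), its vesicular transporter Slc32a1 (-3.41) and the chloride extruder Slc12a5 (-2.44), which are also typical of neurons, were lower as well. So were the calcium pumps Atp2b1 (-1.37) and Atp2b4 (-1.64), the sodium-calcium exchanger Slc8a1 (-1.53) and the mechanically gated channel Piezo1 (-2.34). Cnih3, which escorts AMPA receptors, was chosen on a DTG response and is given without a test. It read 2.34, 3.20, 6.11 and 2.87 CPM in untreated OLs, 3.07, 1.66, 2.51 and 5.25 CPM with vehicle and 11.8, 10.4, 10.5 and 10.4 CPM with DTG. Its DTG-treated OL values were close together and above all untreated and vehicle-treated OL values.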

How the data were processed

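Bulk poly(A) RNA (NEBNext Ultra II libraries with ERCC spike-in RNA) was sequenced from 24 cultures, 4 in each of 6 groups. Per the paper's methods and the submitters' processing notes, reads were demultiplexed with bcl2fastq 2.20, aligned to Rnor_6.0 with STAR 2.5.2b and counted per gene with featureCounts of Subread 1.5.2. The authors deposited the raw counts per gene and library, with ERCC rows, which took 1.06 to 7.19% of counts and were kept out of library sizes and tests. The annotation of the 2 libraries counted on another gene list (30560 genes, 21651 shared) and the strand setting are not given in the sources used here. Symbols were paired with 2107 identifiers from the study's lists of changed transcripts, the columns of which with fold changes and p-values were not used.

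The members, lists and tests were chosen with earlier results of these data known. Each comparison was fitted to its own groups with edgeR 4.0.16 (filterByExpr, TMM factors, quasi-likelihood test, R 4.3.3) on the shared identifiers where an untreated group entered, and genes were called at a Benjamini-Hochberg adjusted p below 0.05 with a log2 fold change larger than 1 in size. The interaction was the DTG effect in OLs minus that in OPCs. Alternatives were DESeq2 1.42.0, DESeq2 size factors, ERCC scaling, no count filter, no minimum fold, 1 fit of all 24 libraries, the replicate block, leaving out the libraries on the other gene list, and leaving out each library in turn. Scripts were tested on simulated counts. Values in every library are given for the most abundant gene in OPCs and the gene with the largest untreated change of each class, a rule that chose 22, and other genes are named with their fold change. Of the 50 genes, 7 enter the counts, sums and medians but are not reported here by name. Replicate numbers were taken to pair libraries where all 4 same-numbered pairs deviated together with a correlation over 0.1. This held between the stages of untreated cells (0.27 to 0.68) and between untreated and DTG-treated OLs (0.20 to 0.47). Between the stages of untreated cells, OPC replicates 2 and 4 correlated more with an OL library of another number (0.43 and 0.39). Replicate 3 was counted there on the other annotation at both stages, so pairing by number is not settled. Counting error was smallest for abundant genes, and genes under about 10 counts in a library carry wide errors. The p-values measure the spread between these cultures, 4 in each group.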

Additional observations from a re-analysis of the deposited data

Results flagged for a closer look

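In the 22 genes chosen by class, 132 groups of 4 values were examined for a value far from the others, and 7 were found, where chance gives about 1 in 20. In untreated OPCs these were Grm5 in replicate 3 at 115.4 CPM, a library counted on the other gene annotation, and Chrm3 in replicate 2 at 19.7 CPM. In treated OPCs they were Cacna2d3 at 4.35 CPM in the DTG-treated replicate 2 and Kcnj4 at 10.1 CPM in the vehicle-treated replicate 4. In OLs they were Gria1 at 14.5 CPM in the untreated replicate 4, Grm2 at 1.36 CPM in the vehicle-treated replicate 1 and Kcnf1 at 1.38 CPM in the DTG-treated replicate 1.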

How the results depend on the processing

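The counts of channel and receptor genes lower in OLs kept within 1.5 times under every alternative run, at 33 to 43 in untreated cells and 43 to 50 with DTG. In DTG-treated against untreated OLs, 1 gene was called higher in place of 0 with DESeq2, with the replicate block and with the block without the libraries on the other gene list, the last chosen after seeing the data. Leaving out single libraries gave 0 or 1, the latter without the untreated OL library of replicate 3 or the DTG-treated OL library of replicate 4. All genes called there numbered 31, with 106 by DESeq2, 107 with the block, 154 with the block without the libraries on the other gene list and 10 on the ERCC scale.

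Scaling to ERCC counts moved the median of all genes in OLs against OPCs from -0.10 to -0.99 in untreated cells and from -0.11 to -1.35 with DTG. The medians of the members became -2.68 and -3.18, and higher and lower calls of all genes changed from 1391 and 1605 to 361 and 3241 without treatment, and from 2159 and 3015 to 467 and 7860 with DTG. In vehicle-treated cells the members' median became -3.29, and in DTG-treated against vehicle-treated OLs 0.66, where all genes had 0.44. The cause was not tested. No called value changed sign, but medians near 0 did. The members' median in DTG-treated against untreated OPCs went from 0.04 to -0.03 without the untreated library of replicate 2, that in OLs from -0.04 to 0.02 without the untreated library of replicate 4 and to 0.05 without the DTG-treated library of replicate 2, and the interaction's median over all genes from 0.03 to -0.33 on the ERCC scale. Of the values of the 22 genes chosen by class, 729 kept their call, 13 gained and 12 lost one. DTG-treated OPCs and OLs were not paired by number (correlations of -0.34 to 0.33), and the replicate block gave 44 members there. The replicate block changed no call of members in DTG-treated against untreated OPCs or in the interaction, and it called 2 members higher in place of 0 in DTG-treated against vehicle-treated OLs, which the choice of genes had used. Depth limits what can be said of genes with few counts in OLs, such as Grm2, Scn7a and Gabra5.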
